A study of Homo sapiens with 9 samples.

Results

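The Hedgehog pathway genes examined here are 9 genes named by symbol: the ligands SHH, IHH and DHH, the receptor PTCH1, the signal transducer SMO, the ligand-binding inhibitor HHIP and the transcription factors GLI1, GLI2 and GLI3. All 9 were found by symbol among the 60603 genes of the expression table, and 6 of them had enough reads to be tested. The libraries are bulk RNA-seq of TC32, an established cell line from Ewing sarcoma, a childhood tumour of bone and soft tissue driven by the EWS::FLI1 fusion transcription factor. The experiment silenced the fusion to find the genes that it induces or represses. There were 3 groups of 3 biological replicates each.

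All 9 libraries share the cell line, a genotype labelled WT, growth medium with 10% FBS and L-glutamine, a time label of 30 h and a batch label of 1. The siEF group received an siRNA spanning the fusion breakpoint. The siNEG group received a negative control siRNA, as far as its label tells. The Media group carries the label Media in place of an siRNA, although the treatment text common to all libraries says that cells were plated on siRNA. The labels give polyA RNA as the molecule and name a kit for small RNA libraries, and these statements were not reconciled here. As a model the experiment is 1 cell line with 1 silencing siRNA at 1 time, so what follows describes TC32 cells under that siRNA.

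In the Hedgehog pathway a secreted ligand, made as a precursor that is cut and given a cholesterol and a palmitate group, binds PTCH1 on the receiving cell. Without ligand PTCH1 holds SMO inactive and the GLI proteins are restrained or processed to repressors, and with ligand SMO accumulates in the primary cilium and full-length GLI proteins activate transcription. GLI1, PTCH1 and HHIP are classical targets of the pathway and are widely used to read its activity.

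Values are estimated read counts per gene, as deposited. They are also given as counts per 1000000 reads (CPM) after scaling each library by edgeR's TMM factor. A gene is said to have risen or fallen where edgeR's quasi-likelihood test gave an adjusted P under 0.01 over 16093 genes, and it is called where the log2 fold change also passed 1 in size, the cut-offs of the study. Total counts were between 20727706 and 33134581 per library, so the limit that a count of 0 allows (3 counts) lies between 0.0884 and 0.147 CPM and covers counting error only. The 10 most abundant genes took 12.3% to 12.9% of the counts in siEF and 5.78% to 6.62% in the other libraries. FLI1, the 3′ part of the fusion, was at 35.5 to 39.3 CPM in siEF. This was below the 48.0 to 48.6 CPM of siNEG and the 56.2 to 59.5 CPM of Media. By the fit FLI1 kept 78.2% of its siNEG level in siEF, and in siNEG 83.5% of its Media level. The methods report a 3-cycle change by qPCR as the check of silencing, and the gap between these figures was not examined here. NR0B1, an induced target of the fusion, was at 15.6 to 20.2 CPM in siEF against 133 to 143 CPM in siNEG. A list of 7 Ewing sarcoma markers summed to 334 to 356 CPM in siEF, 2250 to 2370 CPM in siNEG and 2430 to 2540 CPM in Media, with no marker at 0 in a whole group. A list of 10 markers of other cell types summed to 10.3 to 11.4 CPM in siEF, 5.39 to 7.17 CPM in siNEG and 6.82 to 8.63 CPM in Media, and 3, 4 and 3 of the 10 were at 0 in every library of those groups. Of its 6 tested markers, EPCAM, CDH1, DES and ALPL were higher and PECAM1 was lower in siEF than in siNEG, although EPCAM had a log2 fold change of only 0.02 against Media. EPCAM, CDH1 and DES passed the filter only through siEF, and the part of these shifts in the results below was not tested.

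Upstream windows of the members were searched for short motifs because GLI proteins and the fusion act through known DNA letters. The RefSeq promoter table (GRCh38.p14) holds 12 starts for 7 of the 9 members, all but GLI1 and GLI3. In the 250 bases before each start, both strands were searched for the GLI consensus GACCACCCA, its core CCACCCA (which lies within the consensus, so the 2 overlap), a pair of GGAA repeats GGAAGGAA, an ETS core CCGGAA and the AP-1 motif TGANTCA. These are held by 0.199%, 8.17%, 3.06%, 14.5% and 6.57% of the 35116 promoter windows of the table. The 3 windows below are shown because the genes behind them moved in different directions or by different amounts. Capitals mark a match, and each window reads 5′ to 3′ on the gene's strand and ends at the base before its start.
PTCH1, chr9:95509267-95509516, minus strand: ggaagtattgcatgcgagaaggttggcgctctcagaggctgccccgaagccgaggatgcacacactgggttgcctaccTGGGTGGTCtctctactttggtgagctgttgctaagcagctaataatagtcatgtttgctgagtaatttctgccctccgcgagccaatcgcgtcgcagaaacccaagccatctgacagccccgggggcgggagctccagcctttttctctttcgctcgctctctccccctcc
SHH, chr7:155812464-155812713, minus strand: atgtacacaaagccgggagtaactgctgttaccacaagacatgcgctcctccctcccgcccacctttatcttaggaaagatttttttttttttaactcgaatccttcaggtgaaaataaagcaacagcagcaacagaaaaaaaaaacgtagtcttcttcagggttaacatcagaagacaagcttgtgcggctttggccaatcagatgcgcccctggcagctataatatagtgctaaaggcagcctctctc
GLI2, chr2:120792031-120792280, plus strand: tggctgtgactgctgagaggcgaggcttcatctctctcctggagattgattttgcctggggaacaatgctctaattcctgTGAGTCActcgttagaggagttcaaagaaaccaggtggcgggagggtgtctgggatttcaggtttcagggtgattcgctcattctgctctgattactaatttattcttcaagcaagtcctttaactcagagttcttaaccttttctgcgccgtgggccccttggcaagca
The PTCH1 window shown holds the GLI consensus on the reverse strand (TGGGTGGTC), beginning 172 bases before the start. It is the only PTCH1 window with a match, and the windows of the other PTCH1 starts hold none of the 5 motifs. The shares above are per window, so a gene with more starts had more chances of a match. The GLI2 window holds an AP-1 match (TGAGTCA) that begins 170 bases before the start, and another GLI2 start, at base 120735868, has the GLI core TGGGTGG beginning 164 bases before it. The SHH window holds none of the 5 motifs. A match is a description of letters, and gene counts do not tell from which start a transcript came.

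In siEF, the ligand gene SHH was far lower and 4 of the 5 other tested members were higher than in siNEG. Between siNEG and siEF, the ligand SHH fell 25.8-fold while its receptor PTCH1 rose 8.12-fold, GLI3 rose 2.90-fold, GLI2 1.83-fold and SMO 1.43-fold. GLI1, the target most often used to read the pathway, had 23 or fewer counts in every library. Of the 6 tested members, 4 rose and 1 fell, where 33.6% of all tested genes rose and 31.7% fell. Called higher were 2 members, PTCH1 and GLI3, against 17.1% of all tested genes. Called lower was 1 member, SHH, against 11.7% of all tested genes. The median log2 fold change of the 6 members was 0.69 and that of all tested genes 0.05. In bulk libraries of this kind, fewer cells of a type and less RNA per cell cannot be told apart.

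**Figure D1:**
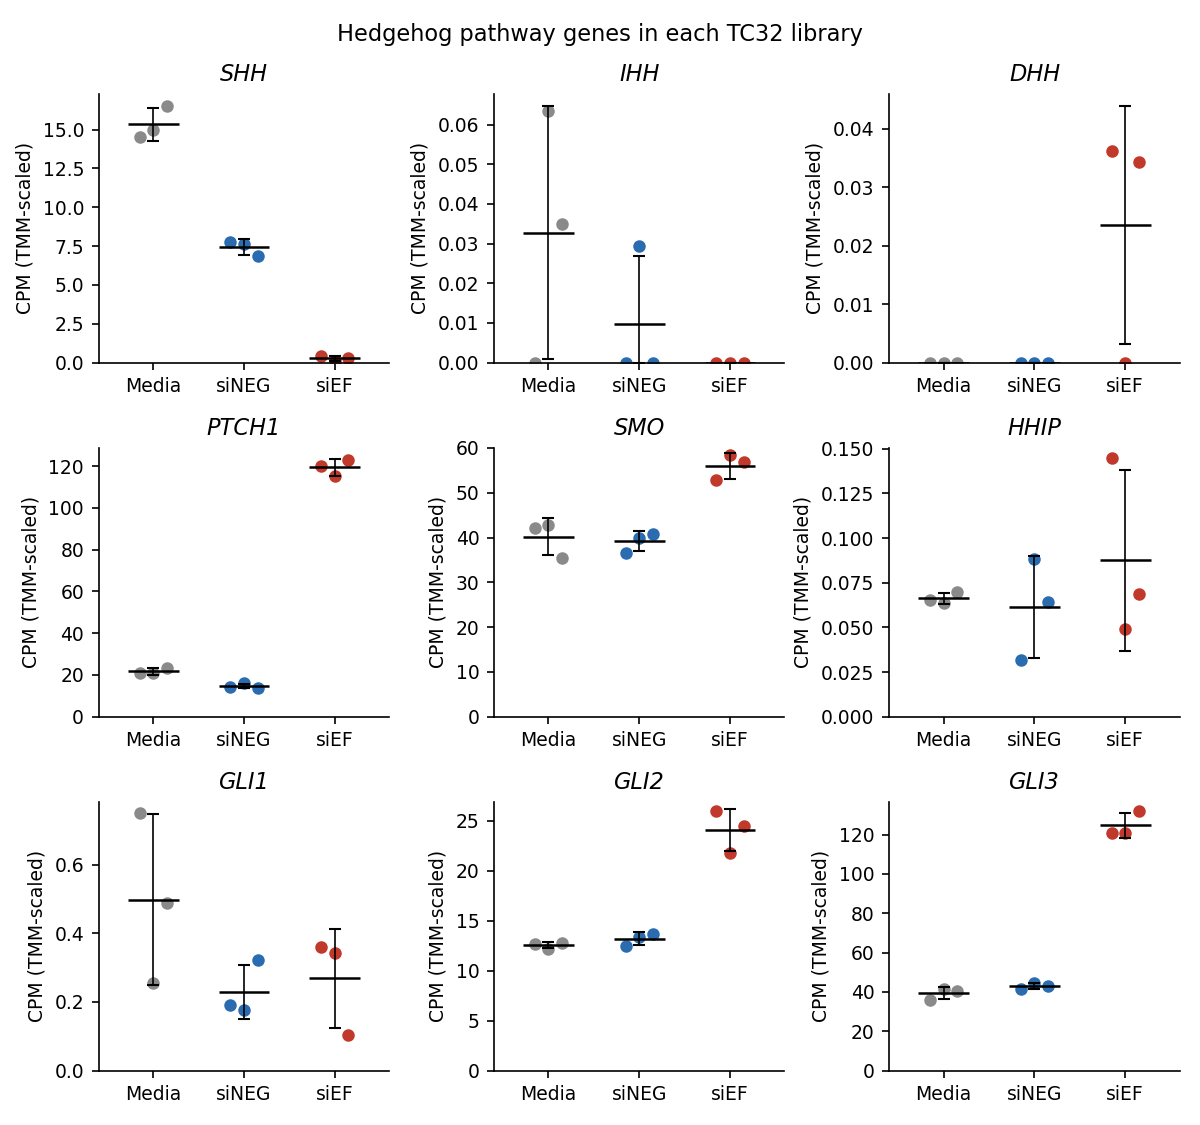
Level of each of the 9 Hedgehog genes in each library, in CPM after TMM scaling on linear axes that differ between panels, for the Media, siNEG and siEF groups. Points are libraries, long bars the group mean and error bars 1 SD (n = 3, lower ends stopped at 0). SHH falls from about 15.3 CPM in Media to 7.43 in siNEG and 0.269 in siEF, PTCH1, GLI2, GLI3 and SMO are highest in siEF, and IHH, DHH, HHIP and GLI1 stay below 1 CPM.

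Among the ligands, reads came almost entirely from SHH (ENSG00000164690.8, chr7:155799980-155812463, minus strand of GRCh38), best known for patterning the neural tube and limb. SHH had 444, 473 and 472 counts in Media replicates 1, 2 and 3, 246, 260 and 214 in siNEG, and 12, 2 and 8 in siEF. After scaling these were 14.5, 15 and 16.5 CPM in Media, 7.77, 7.66 and 6.86 CPM in siNEG and 0.434, 0.098 and 0.274 CPM in siEF. The 3 groups form 3 separate steps with no overlap, and siEF replicate 2, the shallowest library, lies below its own limit of 0.147 CPM. The mean fell from 7.43 ± 0.498 CPM (SD, n = 3) among siNEG libraries to 0.269 ± 0.168 CPM (SD, n = 3) among siEF libraries, a log2 fold change of -4.69 (± 0.22 SE, edgeR quasi-likelihood adjusted P = 8.31e-12), or 3.87% of the siNEG level. Only 13 of the 16093 tested genes had a lower fitted log2 fold change. That SHH falls steeply in these libraries was known when the 9 genes were put together, so its fall is not independent support for a change of the pathway. The other members and the pathway lists below were also chosen with earlier results of these data known. Their shares beside all tested genes are therefore descriptions and not independent support either.

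SHH also differed between the control groups. Its mean was 15.3 ± 1.03 CPM (SD, n = 3) in Media and 7.43 ± 0.498 CPM (SD, n = 3) in siNEG. That is a log2 fold change of -1.04 (± 0.12 SE, same test, adjusted P = 1.64e-05), so that the siNEG level was 48.5% of the Media level. The value lies close to the fold cut-off, and it was -0.99 without Media replicate 3 or without siNEG replicate 3. Against Media, SHH was 53.2-fold lower in siEF (log2 fold change -5.73, same test, adjusted P = 2.48e-13), a comparison that shares the siEF libraries with the one above.

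The other ligands were at or under the counting limit. IHH (ENSG00000163501.7, chr2:219054424-219060921), which acts in growth plate cartilage, had 0, 2 and 1 counts in Media, 0, 1 and 0 in siNEG and 0 in each siEF library. DHH (ENSG00000139549.4, chr12:49086656-49094801), the ligand of testis and nerve sheath, had 0 counts in each of the 6 control libraries and 1, 0 and 1 in siEF. Neither passed the filter on low counts, and no fold is given because both groups of each comparison lie under 3 counts per library. In siEF neither gene had more than 1 count in a library, beside a mean of 7.43 CPM for SHH in siNEG. No rise of IHH or DHH to that level was seen. A switch to another ligand gene under 3 counts per library was not detectable at this depth.

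At the receptor, PTCH1 (ENSG00000185920.15, chr9:95442980-95517057, minus strand) moved opposite to SHH. It had 636, 655 and 671 counts in Media, 449, 541 and 435 in siNEG and 3323, 2356 and 3576 in siEF, the last although siEF replicate 2 had the fewest reads. After scaling these were 20.8, 20.8 and 23.4 CPM in Media, 14.2, 15.9 and 13.9 CPM in siNEG and 120, 115 and 123 CPM in siEF. The siEF libraries lie far above all others and siNEG lies below Media, with no overlap between any of the 3 groups. The mean rose from 14.7 ± 1.09 CPM (SD, n = 3) among siNEG libraries to 119 ± 3.64 CPM (SD, n = 3) among siEF libraries, a log2 fold change of 3.02 (± 0.07 SE, edgeR quasi-likelihood adjusted P = 1.27e-15), and 626 tested genes had a higher one. Between Media and siNEG, PTCH1 fell by 0.56 on the log2 scale (± 0.07 SE, same test, adjusted P = 5.06e-05) to 67.9% of the Media level. PTCH1 shares 711 exonic bases with an antisense RNA, AL161729.1, which had 8 to 16 counts in siEF and 2 to 7 in the other libraries. The strand setting of the counting is not given in the sources used here, so reads of the 2 genes in the shared bases cannot be told apart, but the antisense counts are few beside those of PTCH1.

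SMO (ENSG00000128602.11, chr7:129188633-129213545, plus strand), the membrane protein that PTCH1 inhibits, had the highest level per length of the 9 genes in each group. It was at 42.2, 42.9 and 35.5 CPM in Media, 36.6, 40.0 and 40.8 CPM in siNEG and 52.8, 58.4 and 56.9 CPM in siEF. Media and siNEG overlap and siEF lies above both. The mean rose from 39.1 ± 2.22 CPM (SD, n = 3) among siNEG libraries to 56.0 ± 2.89 CPM (SD, n = 3) among siEF libraries, a log2 fold change of 0.52 (± 0.07 SE, edgeR quasi-likelihood adjusted P = 8.99e-06), which is below the fold cut-off. Between Media and siNEG the log2 fold change of SMO was -0.04 (± 0.07 SE, same test, adjusted P = 0.781).

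HHIP (ENSG00000164161.10, chr4:144646156-144745271, plus strand), a membrane protein that binds Hedgehog ligands and limits their spread, was barely detected. It had 2 counts in each Media library, 1, 3 and 2 in siNEG and 4, 1 and 2 in siEF. The groups overlap, the gene did not pass the filter, and a difference was not detectable at this depth. Unlike PTCH1, the other inhibitor that is a classical GLI target, HHIP did not exceed 4 counts in any library.

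GLI1 (ENSG00000111087.10, chr12:57459785-57472268, plus strand), the activator whose own transcription depends on the pathway, was near the counting limit throughout. It had 23, 8 and 14 counts in Media, 6, 6 and 10 in siNEG and 10, 7 and 3 in siEF, or 0.751, 0.254 and 0.489 CPM, 0.190, 0.177 and 0.321 CPM, and 0.361, 0.343 and 0.103 CPM. The siEF and siNEG libraries overlap, and Media replicate 1 is the highest of all. In siEF relative to siNEG its log2 fold change was 0.20 (± 0.60 SE, edgeR quasi-likelihood adjusted P = 0.776), and its sign turned to -0.12 without siEF replicate 1. Between Media and siNEG it was -1.11 (± 0.54 SE, same test, adjusted P = 0.18). With errors of this size the tests do not show that GLI1 stayed the same.

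GLI2 (ENSG00000074047.21, chr2:120735623-120992653, plus strand), the main activator early in Hedgehog signalling, was at 12.7, 12.2 and 12.8 CPM in Media, 12.5, 13.4 and 13.7 CPM in siNEG and 26.0, 21.8 and 24.5 CPM in siEF. The control groups overlap and each siEF library lies above them. The mean rose from 13.2 ± 0.651 CPM (SD, n = 3) among siNEG libraries to 24.1 ± 2.14 CPM (SD, n = 3) among siEF libraries, a log2 fold change of 0.87 (± 0.08 SE, edgeR quasi-likelihood adjusted P = 3.73e-08). GLI2 stayed short of the fold cut-off, and between Media and siNEG its log2 fold change was 0.07 (± 0.08 SE, same test, adjusted P = 0.612).

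GLI3 (ENSG00000106571.14, chr7:41960949-42264100, minus strand), whose processed form is the main repressor of Hedgehog targets, was the most abundant of the 3 GLI genes. It was at 35.9, 41.6 and 40.6 CPM in Media, 41.6, 44.5 and 43.1 CPM in siNEG and 121, 121 and 132 CPM in siEF. Each siEF library lies above all control libraries, and the control groups meet at 41.6 CPM. The mean rose from 43.1 ± 1.46 CPM (SD, n = 3) among siNEG libraries to 125 ± 6.26 CPM (SD, n = 3) among siEF libraries, a log2 fold change of 1.54 (± 0.06 SE, edgeR quasi-likelihood adjusted P = 1.18e-12). Between Media and siNEG the log2 fold change of GLI3 was 0.13 (± 0.06 SE, same test, adjusted P = 0.183). Counts of RNA do not tell full-length GLI3 protein from its repressor form.

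**Figure D2:**
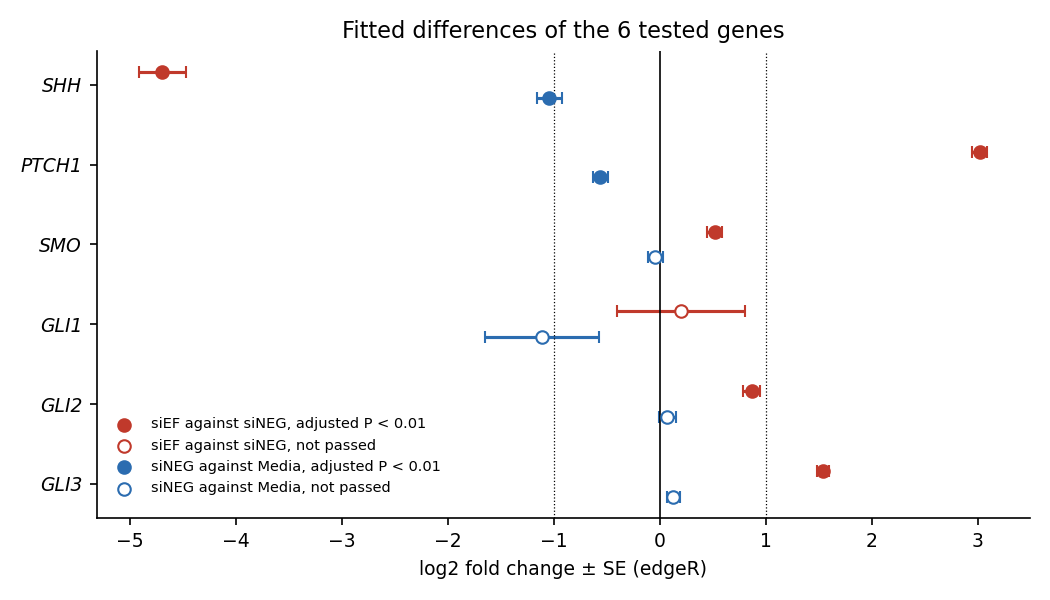
Log2 fold change with its SE for the 6 tested Hedgehog genes, siEF against siNEG in red and siNEG against Media in blue, with filled points for an adjusted P under 0.01 and dotted lines at the fold cut-off of 1. SHH lies at -4.69 and -1.04, PTCH1 at 3.02 and -0.56, and GLI1 has the widest errors (SE 0.60 and 0.54).

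The comparison of siNEG with Media asked whether the pathway genes differed between the control groups. No group was treated without an siRNA but otherwise like siNEG, so the siRNA cannot be told apart from its delivery. In it, 2 members fell, SHH and PTCH1, and 0 rose in edgeR's quasi-likelihood test, while 4 did not pass. Of all tested genes 5.96% fell and 3.83% rose. SHH was the 1 member called lower, against 0.267% of all tested genes. GLI1 was also past the fold cut-off (-1.11) but did not pass the test. The median log2 fold change of the members was -0.3, and that of all tested genes was 0. SHH and PTCH1 were thus both lower in siNEG than in Media, whereas in siEF SHH fell and PTCH1 rose.

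When siEF was compared with Media instead, the calls in siEF named the same members. PTCH1 rose 5.51-fold, GLI3 3.17-fold, GLI2 1.92-fold and SMO 1.39-fold, and GLI1 had a log2 fold change of -0.91 (± 0.55 SE, edgeR quasi-likelihood adjusted P = 0.146). Called higher were 2 members (17.4% of all tested genes) and called lower 1 (12.5% of all tested genes). The comparisons share the siEF libraries, so they are not independent of each other.

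Levels were compared between genes as CPM per kilobase of annotated exon, which for PTCH1, with 17281 exonic bases over many isoforms, gives a low figure. In Media the order of the mean levels per kilobase was SMO (8.46), SHH (2.93), GLI3 (2.85), GLI2 (1.63), PTCH1 (1.25) and GLI1 (0.109). SHH and GLI3 did not differ beyond their spread there, at 2.77 to 3.15 and 2.6 to 3.01. In siNEG the order was SMO (8.24), GLI3 (3.12), GLI2 (1.71), SHH (1.42), PTCH1 (0.85) and GLI1 (0.0502), with no overlap between neighbours. In siEF it was SMO (11.8), GLI3 (9.04), PTCH1 (6.91), GLI2 (3.12), GLI1 (0.059) and SHH (0.0513). The last pair overlapped, at 0.0225 to 0.0792 for GLI1 and 0.0187 to 0.0828 for SHH, so SHH moved from the level of GLI3 in Media to that of GLI1 in siEF.

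Ratios of counts within a library do not depend on its scaling. For each count of SHH there were 1.43, 1.39 and 1.42 counts of PTCH1 in Media, 1.83, 2.08 and 2.03 in siNEG and 277, 1178 and 447 in siEF, the last resting on few SHH counts. PTCH1 counts per SMO count were 0.485 to 0.660 in Media, 0.342 to 0.399 in siNEG and 1.98 to 2.27 in siEF. Per kilobase SMO stayed above PTCH1 in each group, as given above. GLI3 counts per GLI2 count were 2.83 to 3.39 in Media, 3.14 to 3.33 in siNEG and 4.65 to 5.57 in siEF. Each ratio was highest in the siEF libraries with no overlap, which shows unequal change within pairs and not which partner changed.

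**Figure D3:**
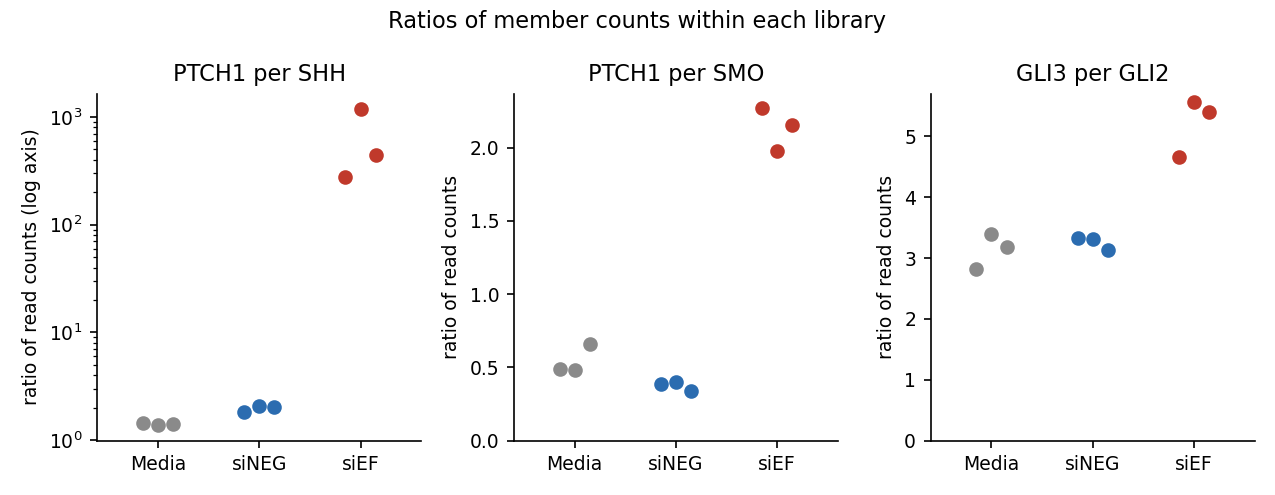
Ratio of read counts of 2 Hedgehog genes within each library, by group, with a log axis for PTCH1 per SHH and linear axes from 0 for PTCH1 per SMO and GLI3 per GLI2. Each point is 1 library. The siEF points lie above all others in each panel, at 277 to 1178, 1.98 to 2.27 and 4.65 to 5.57.

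Genes that prepare and release the ligand were followed in a list of 7, of which 5 were tested. Of these, SCUBE2 and SCUBE3 passed the filter on low counts only through siEF, where they are high, so their difference was fixed by being tested. The other 3 tested genes, HHAT, DISP1 and DISP2, rose in siEF against siNEG and 2 of them were called higher, where 33.6% of all tested genes rose and 17.1% were called higher. HHAT, the acyltransferase that adds the palmitate to the ligand, rose from 1.73 ± 0.452 to 12.5 ± 1.07 CPM (SD, n = 3 each), a log2 fold change of 2.86 (± 0.18 SE, edgeR quasi-likelihood adjusted P = 3.51e-10). DISP1, which exports the cholesterol-bearing ligand, rose from 1.03 ± 0.128 to 4.57 ± 0.298 CPM (SD, n = 3 each), a log2 fold change of 2.14 (± 0.21 SE, same test, adjusted P = 7.79e-08). Its relative DISP2 had a smaller rise, of 0.82 (± 0.18 SE, same test, adjusted P = 0.000527), which did not pass with Media as the control, at 0.22 (± 0.17 SE, same test, adjusted P = 0.258). The secreted carriers SCUBE2 and SCUBE3, which help the ligand leave the cell, were near 0 in the control groups. SCUBE2 had 0 to 2 counts per siNEG library and 19 to 29 per siEF library, a ratio of 30.9 with a 95% counting interval of 10.2 to 153. SCUBE3 had 1 to 2 counts per siNEG library and 120 to 172 per siEF library, a ratio of 138 with an interval of 53.4 to 508. Both intervals cover counting error only and not the spread between replicates. HHAT and DISP1 were thus highest in the libraries with the fewest SHH reads.

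Receptors, co-receptors and other surface binders made a list of 10, with PTCH1, SMO and HHIP among them. All 6 tested genes rose in siEF (33.6% of all tested genes) and 0 fell, and 4 were called higher (17.1% of all tested genes), with a median log2 fold change of 1.79. BOC, a co-receptor for the ligand, rose from 1.46 ± 0.144 to 12 ± 1.02 CPM (SD, n = 3 each), a log2 fold change of 3.04 (± 0.17 SE, edgeR quasi-likelihood adjusted P = 8.34e-11). CDON, the related co-receptor, rose from 33 ± 2.75 to 106 ± 3.80 CPM (SD, n = 3 each), a log2 fold change of 1.69 (± 0.07 SE, same test, adjusted P = 1.19e-12). GAS1, a membrane-anchored binder of the ligand, had a log2 fold change of 0.67 (± 0.07 SE, same test, adjusted P = 1.87e-07). The 4 genes not tested were HHIP, LRP2, GPC3 and GPC5.

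The intracellular transducers, a list of 32 genes between SMO and the GLI proteins, went both ways. In siEF 16 rose, 11 fell and 5 did not pass, with a median log2 fold change of 0.18. These are 50.0% risen and 34.4% fallen, beside 33.6% and 31.7% of all tested genes. Called higher were 3.12% and called lower 0%, below the 17.1% and 11.7% of all tested genes. EVC2, a ciliary partner of SMO, was the 1 gene called, rising from 2.93 ± 0.472 to 6.61 ± 0.674 CPM (SD, n = 3 each; log2 fold change 1.17, ± 0.16 SE, edgeR quasi-likelihood adjusted P = 4.43e-06). Its partner EVC rose by 0.91 on the log2 scale (SE 0.07). SUFU, which binds and restrains the GLI proteins, rose by 0.78 (SE 0.06), and BTRC, which marks GLI proteins for processing, by 0.92 (SE 0.06). The catalytic subunit gene PRKACB of protein kinase A, which phosphorylates GLI proteins for processing, fell by 0.92 on the log2 scale (SE 0.07), while PRKACA had a log2 fold change of 0.03 (SE 0.05).

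Genes described as GLI targets in other tissues made a list of 40, of which 31 were tested and 9 were not. In siEF 14 rose, 13 fell and 4 did not pass, with 14 called higher, 9 called lower and a median log2 fold change of 0.20. SFRP1 passed the filter only through siEF, and of the other 30 tested genes 43.3% were called higher and 30.0% lower, beside 17.1% and 11.7% of all tested genes, with a median of 0.11. The risen genes include PTCH1, the transcription factor genes FOXF1 and SOX9 and the growth factor receptor gene PDGFRA. FOXF1 rose from 8.33 ± 0.733 to 35.1 ± 2.95 CPM, SOX9 from 10.7 ± 1.05 to 159 ± 10.6 CPM and PDGFRA from 2.01 ± 0.255 to 112 ± 3.33 CPM (SD, n = 3 each). Their log2 fold changes were 2.08 (SE 0.09), 3.89 (SE 0.08) and 5.80 (SE 0.09). Further called rises were those of FOXC2 (4.77), WNT2B (4.47), SFRP1 (3.86), CYP1B1 (3.81), SNAI2 (3.40), IGFBP6 (2.62), SNAI1 (1.48), HSD11B2 (1.27) and KRT17 (1.24), as log2 fold changes. The cyclin gene CCND1 fell from 1870 ± 79.8 to 95.4 ± 6.73 CPM (SD, n = 3 each), a log2 fold change of -4.29 (± 0.06 SE, edgeR quasi-likelihood adjusted P = 6.51e-18). The other called falls were those of FOXM1 (-2.50), MYCN (-2.0), SOX2 (-1.93), CCNE1 (-1.89), NKX6-1 (-1.69), NKX2-2 (-1.44), GREM1 (-1.37) and STIL (-1.06). With Media as the control CCNE1 was not called (-0.89, SE 0.11), and FOXC2, which had only 1 to 9 counts per siNEG library, was at 2.50 (SE 0.30). CCND1 and NKX2-2 also stand on the list of Ewing sarcoma markers, so the lists are not independent. Many genes of this list answer to other pathways too, and the counts do not single out the pathway.

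**Figure D4:**
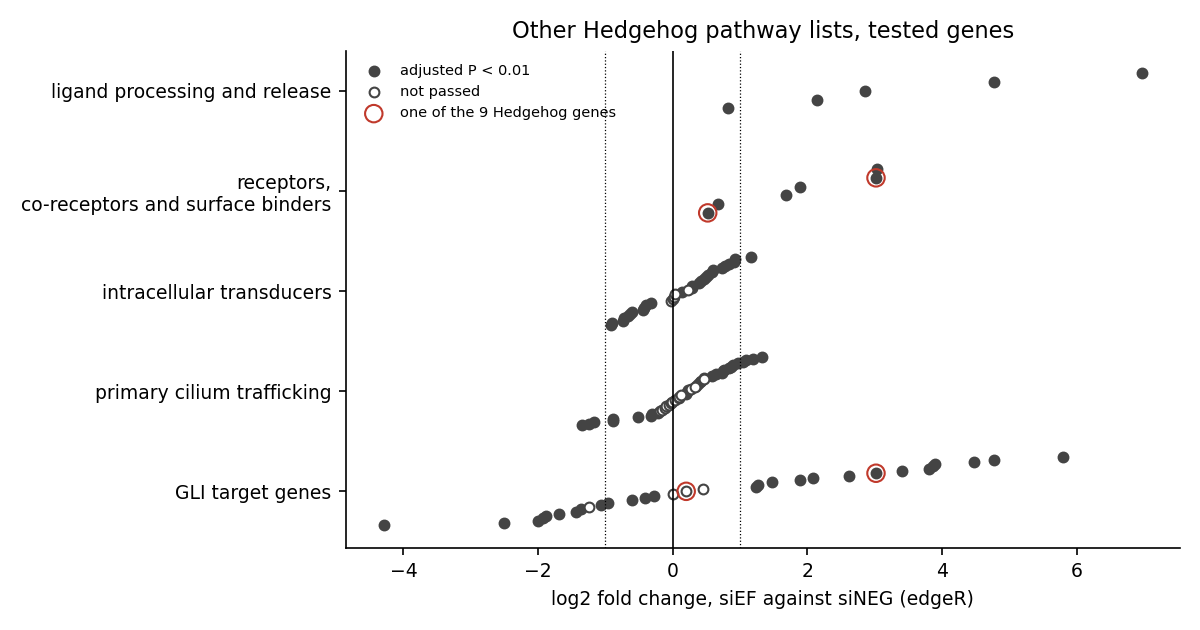
Log2 fold change of siEF against siNEG for each tested gene of 5 Hedgehog pathway lists, with filled points for an adjusted P under 0.01, open points for genes that did not pass, red rings for the 9 Hedgehog genes and dotted lines at 1 and -1. The tested genes for ligand release (5, of which SCUBE2 and SCUBE3 were tested only through their siEF reads) and for receptors (6) all lie above 0, while the transducers, cilium genes and GLI targets lie on both sides.

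Between siNEG and Media fewer genes of these lists passed. The lists held 5 tested genes for ligand release, 6 receptors, 32 transducers and 31 GLI targets. Of these, 1 for ligand release (HHAT, 0.96), 0 receptors, 1 transducer (STK36, 0.35) and 2 GLI targets (CCNE1, 1.00, and CYP1B1, 0.67) rose, with log2 fold changes in parentheses. Fallen were 0 genes for ligand release, 2 receptors (PTCH1 and GAS1, the latter -0.37), 5 transducers and 6 GLI targets, among them FOXC2 (-2.27, SE 0.43). Of all tested genes 3.83% rose and 5.96% fell. SPOPL, an adaptor related to the GLI-degrading SPOP, had a log2 fold change of -1.24 (± 0.08 SE, edgeR quasi-likelihood adjusted P = 2.31e-08). Its siEF and siNEG levels overlapped, at a log2 fold change of -0.02 (± 0.08 SE, same test, adjusted P = 0.862).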

How the data were processed

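TC32 RNA was sequenced in 3 groups of 3 libraries, grouped and numbered by the sample labels. According to the methods, the authors mapped reads to hg38 with STAR and quantified them with RSEM, and the deposited values are expected counts per gene, unscaled and not pooled. The submitters' processing notes also name FastQC, cutadapt 2.10 and DESeq2 1.32.0. The annotation release and strand setting are not given in the sources used here.

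Rounded expected counts that passed filterByExpr (16093 of 60603 genes) entered a quasi-likelihood fit in edgeR 4.0.16 (R 4.3.3) with TMM scaling, 1 mean per group, a spread shared by all 9 libraries and Benjamini-Hochberg adjustment. SEs were derived from each log2 fold change and its F statistic. The procedure was tested on simulated data. Replicates differed by more than sampling noise (chi-square per degree of freedom 3.57 to 23.2). P values measure the spread between these replicates.

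The genes named are all 9 members, the genes of the pathway lists called in siEF against siNEG, the 3 tested genes with the highest Pearson correlation to SHH and to GLI1, and FLI1, EWSR1 and NR0B1. Some called genes are not reported here. Other list genes were named after their values were seen. The members and lists were chosen with earlier results of these data known. Positions and exon lengths are from GENCODE release 44, which holds 60306 of the gene identifiers. Alternatives were DESeq2 1.42.0, other scalings, filters, cut-offs and controls, counts not rounded, a replicate block, the 6 libraries compared only, and each library left out.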

Additional observations from a re-analysis of the deposited data

How the results depend on the processing

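The counts of Hedgehog genes called in siEF against siNEG (1 lower, 2 higher) and of those that changed between siNEG and Media (2) were the same with DESeq2, other scalings, no filter, unrounded counts, the 6 libraries compared only and each library left out. With at least 10 counts required in every library SHH and GLI1 were not tested, which gave 0 called lower and 1 changed between siNEG and Media. With no fold cut-off 4 members were higher in siEF. The replicate numbers did not pair the libraries (correlation of deviations of same-numbered libraries -0.09 to 0.05), and with a replicate block the counts were 1, 2 and 2. Over all alternatives the log2 fold changes in siEF lay between -5.73 and -4.39 for SHH and 2.46 and 3.11 for PTCH1. They lay between 0.44 and 0.60 for SMO, 0.80 and 0.96 for GLI2 and 1.48 and 1.67 for GLI3. The values -5.73, 2.46 and 1.67 are those with Media as the control in place of siNEG. Against siNEG the range was -5.18 to -4.39 for SHH and 2.96 to 3.11 for PTCH1. GLI1 had no stable sign, at -0.12 to 0.62 with 1 library left out and -0.91 with Media as the control. SMO in siNEG against Media had values of -0.12 to 0.02 with 1 library left out, with 0.01 without Media replicate 2 and 0.02 without siNEG replicate 1. In alternatives added after the data were seen, tested genes for ligand release that rose numbered 3 to 6 (3 with at least 10 counts in every library, and 3 without those tested only through siEF), receptors 6 throughout, transducers 14 to 17 and GLI targets 11 to 15. Depth limits IHH, DHH, HHIP and GLI1, which had 23 or fewer counts in every library.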

Other observations

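Vertebrate Hedgehog signals pass through the primary cilium, and a list of 44 genes for its transport and gate was tested in full. In siEF against siNEG 21 rose, 9 fell and 14 did not pass in edgeR's quasi-likelihood test, with 4 called higher, 3 called lower and a median log2 fold change of 0.21. Risen were 47.7% and fallen 20.5%, beside 33.6% and 31.7% of all tested genes. The 9.09% called higher and 6.82% called lower lie below the 17.1% and 11.7% of all tested genes. The called rises were those of CC2D2A of the ciliary gate (1.33, SE 0.14), BBS2 of the BBSome (1.2, SE 0.06), IFT140 of the retrograde transport complex (1.09, SE 0.07) and DYNC2LI1 of the dynein that drives it (1.04, SE 0.08). The called falls include those of DYNC2I2 of the same dynein (-1.35, SE 0.08) and ARL6, which recruits the BBSome (-1.17, SE 0.15). Members of 1 complex thus moved in opposite directions. Between siNEG and Media, 6 of the 44 cilium genes rose and 2 fell, where 3.83% of all tested genes rose and 5.96% fell. KIF3A, a motor for transport into the cilium, had a log2 fold change of -0.84 (± 0.09 SE, same test, adjusted P = 1.04e-05).

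Neighbours were taken among protein-coding genes that do not overlap the member. The nearest tested ones on either side of SHH did not pass in siEF against siNEG. RBM33, 18495 bases away, had a log2 fold change of 0.00 (± 0.05 SE, edgeR quasi-likelihood adjusted P = 0.959). RNF32, 827818 bases away on the other side, had one of 0.54 (± 0.35 SE, same test, adjusted P = 0.175). Beside PTCH1, FANCC at 16184 bases had -0.16 (SE 0.06, adjusted P = 0.0272) and ERCC6L2 at 354207 bases 0.18 (SE 0.09, adjusted P = 0.0992), both from the same test and neither past the threshold of 0.01. The nearest tested protein-coding genes to GLI3 lie far off. SUGCT at 1100186 bases had 0.36 (SE 0.28) and C7orf25 at 645173 bases 0.47 (SE 0.20), neither past the threshold. Beside GLI1, MARS at 3177 bases fell by 1.65 (SE 0.05) and R3HDM2 rose by 0.97 (SE 0.05), and beside SMO, AHCYL2 rose by 0.36 (SE 0.06) while TSPAN33 did not pass (-0.19, SE 0.13). Beside GLI2, CLASP1, 345123 bases away, rose by 0.29 (SE 0.05), and RALB, 440913 bases away, rose by 1.09 (± 0.06 SE, same test, adjusted P = 1.89e-11).

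Over the 9 libraries and 16093 tested genes, the log2 CPM of LARP1B (Pearson r = 0.9981), PI4K2B (0.9972) and CA13 (0.9969) followed that of SHH most closely, and WIZ (0.8952), SF3A2 (0.8797) and AL162431.2 (0.8755) that of GLI1. These are descriptions over libraries that fall into 3 groups, so each r mostly compares 3 levels, and those for GLI1 rest on 3 to 23 counts per library. EWSR1, the 5′ partner of the fusion, had a log2 fold change of -0.23 (± 0.04 SE, edgeR quasi-likelihood adjusted P = 0.000121).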
